A study of Mus musculus with 16 samples.

Results

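DNA methylation was described along 6 genes for transcription factors of the T lineage, *Tcf7*, *Lef1*, *Gata3*, *Bcl11b*, *Satb1* and *Tox*, of 21755 protein-coding genes annotated on mouse chromosomes 1 to 19 and X. The rule names the genes and uses no methylation value, but they were proposed with earlier results of these data known, so their ranks below are a description. The series holds 16 whole genome bisulphite sequencing libraries, 8 of CD43- B cells and 8 of CD4+ CD62L+ T cells, isolated with magnetic beads from the spleens of C57BL/6J mice at 6 to 8 weeks of age, without any treatment or engineered allele. Each cell type has 4 female and 4 male libraries. Of the 4 libraries of a sex in either cell type, 2 had bisulphite treatment (BS), which reads both 5-methylcytosine and 5-hydroxymethylcytosine as methylated, and 2 had oxidative bisulphite treatment (oxBS), which reads 5-methylcytosine alone as methylated. The protocol divides each DNA sample between the assays after adapter ligation, and the labels do not say which BS and oxBS libraries share DNA or which mice gave it, so the 8 libraries of a cell type may hold fewer independent samples than 8 and the p-values measure the spread between libraries.

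Methylation of cytosines in CpG dinucleotides is written by DNA methyltransferases and is removed passively at cell division or through oxidation to 5-hydroxymethylcytosine by TET enzymes. CpG-rich promoters usually carry little methylation in every tissue, whereas the bodies of lineage genes and the enhancers within them often lose it in the lineage that uses the gene. The products of the 6 genes act in sequence and together as thymocytes commit to the T lineage. TCF-1 (*Tcf7*) and LEF-1 (*Lef1*) are HMG-box factors that can recruit β-catenin, and TCF-1 acts early downstream of Notch. GATA-3 (*Gata3*) is a zinc finger factor needed in early thymocytes, in CD4 lineage development and in T helper 2 cells. BCL11B (*Bcl11b*) is a zinc finger factor that closes off other fates at T lineage commitment. SATB1 (*Satb1*) organises chromatin in thymocytes, and TOX (*Tox*) is an HMG-box factor of CD4 lineage development that also marks exhausted T cells.

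The methylation level of a region is the percentage of methylated calls among the calls pooled over its CpGs in 1 library. The files listed between 123693203 and 171130063 calls per library, with a mean of 5.775 to 7.99 calls per CpG, and the level over all CpGs used was 79.505% to 81.535% in B cells and 78.545% to 79.656% in T cells. Around the first transcription start site (TSS) of marker genes, the labels matched the data for 6 of 6 B cell markers, which lay lower in each B cell library than in each T cell library, and for 7 of 8 T cell markers in the opposite direction, *Cd28* being the exception. The mean over these 8 markers was 14.75% to 22.2% in T cell libraries and 78.4% to 84.05% in B cell libraries. Markers of CD8 T cells were also lower in T cells for 2 of 2 genes, with mean levels of 40% to 54.33% in T cell libraries, and none of 3 natural killer markers separated the groups. Of 5 myeloid markers, *Lyz2* alone did, at 46.61% in B cells and 65.05% in T cells, a difference under the limit used for calls. How far other cells in either preparation enter the values below was not tested, and a mixture of cells and a partial level in each cell cannot be told apart in bulk libraries.

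For 5 of the genes, 1 stretch of 200 bases from an intron is shown, taken from the 500 bp tile with the largest difference between B and T cells among called tiles that overlap no exon, since these tiles show the contrast most plainly. They were chosen for that difference, and their values are a description. The letters are the plus strand of mm10, 5′ to 3′, and the capitals mark the CpGs whose methylation was read.
Tcf7, chr11:52281189-52281388: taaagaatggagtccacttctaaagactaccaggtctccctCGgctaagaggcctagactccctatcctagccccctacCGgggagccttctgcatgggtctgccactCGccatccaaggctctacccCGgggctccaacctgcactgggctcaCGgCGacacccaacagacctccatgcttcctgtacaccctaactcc
Lef1, chr3:131120562-131120761: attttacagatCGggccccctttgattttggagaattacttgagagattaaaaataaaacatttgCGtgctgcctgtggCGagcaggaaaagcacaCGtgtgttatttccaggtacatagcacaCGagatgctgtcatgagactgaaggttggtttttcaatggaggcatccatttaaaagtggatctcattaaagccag
Gata3, chr2:9875749-9875948: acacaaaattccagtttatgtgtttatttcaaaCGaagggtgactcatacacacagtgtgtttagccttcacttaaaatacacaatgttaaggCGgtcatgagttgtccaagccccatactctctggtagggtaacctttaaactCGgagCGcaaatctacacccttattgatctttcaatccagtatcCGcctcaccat
Bcl11b, chr12:107921697-107921896: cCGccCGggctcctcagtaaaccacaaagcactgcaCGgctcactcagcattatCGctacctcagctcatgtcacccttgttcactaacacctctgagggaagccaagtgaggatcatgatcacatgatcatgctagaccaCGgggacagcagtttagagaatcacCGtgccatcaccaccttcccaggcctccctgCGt
Satb1, chr17:51821769-51821968: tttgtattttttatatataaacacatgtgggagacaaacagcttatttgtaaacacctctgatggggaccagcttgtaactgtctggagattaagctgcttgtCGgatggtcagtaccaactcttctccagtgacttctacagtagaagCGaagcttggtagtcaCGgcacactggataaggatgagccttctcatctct

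The tiles that hold these stretches have 3 to 9 CpGs each. The tile around the *Tcf7* stretch lies in an intron 1764 bp from the TSS, and the uncharacterised gene A630014C17Rik overlaps it. It was methylated at 86.08% to 98.75% in B cell libraries, with a median of 96.6%, and at 0% in each of the 8 T cell libraries, at a median of 75 calls per library. Pooled over libraries, none of its 7 CpGs had a methylated call in T cells, on 72 to 94 calls each, whereas the same CpGs were at 92.6% to 97.6% in B cells. At the *Bcl11b* tile, which lies 81852 bp from the TSS and thus near the 3′ end of the gene, levels were 84.13% to 95.92% in B cells (median 92.45%) and 0% to 6.494% in T cells (median 0%). The fifth of the CpGs printed for *Bcl11b* stood below its neighbours in B cells, at 63.5% of 96 calls against 88.7% to 97.5% at the other printed CpGs, and was at 0% of 79 calls in T cells.

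The *Lef1* tile was at 90.7% to 97.87% in B cells (median 93.69%) and 0% to 6.667% in T cells (median 3.963%), and the *Satb1* tile at 92.31% to 100% (median 96.65%) and 0% to 3.333% (median 0%). The tile in *Gata3*, which lies 14284 bp from the first annotated TSS, was at 91.89% to 97.73% in B cells (median 94.28%) and 1.887% to 15.91% in T cells (median 6.696%).

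B cells were first compared with T cells over each whole locus, from 10 kb upstream of the first annotated TSS to the gene end. *Tcf7*, *Lef1*, *Bcl11b* and *Satb1* were lower in T cells by 34.65 to 39.62 percentage points, while *Gata3* and *Tox* were lower by 8.547 and 10.91 points. The test was a logistic model of the calls with quasi-binomial errors, in which sex and assay were further terms, and p-values were adjusted by the Benjamini-Hochberg method over 21567 protein-coding genes. All 6 loci were called lower in T cells at an adjusted p below 0.05, as were 21.2% of the genes tested, while 3.58% were called higher. The difference of each of the 6 also had an exact two-sided permutation p of 0.000155, the smallest that 8 libraries against 8 allow.

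The *Tcf7* locus (chr11:52252371-52293014, gene on the minus strand) was at 60.1% to 65.04% in B cell libraries, with a median of 62.81%, and at 17.03% to 29.87% in T cell libraries, with a median of 22.3%. Its means were 62.35% ± 1.78 and 22.74% ± 5.77 (SD, n = 8 each). The *Lef1* locus (chr3:131100471-131224356, plus strand) was at 74.37% ± 1.33 in B cells against 37.34% ± 9.71 in T cells, the *Bcl11b* locus (chr12:107910403-108013602, minus strand) at 70.12% ± 0.688 and 35.48% ± 9.31, and the *Satb1* locus (chr17:51736187-51843290, minus strand) at 70.05% ± 1.87 and 32.09% ± 9.13 (SD, n = 8 in each group). By the size of the difference these 4 loci ranked 6, 10, 12 and 8 of the 21567 genes, whose median difference was 1.112 points.

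The *Gata3* locus (chr2:9857078-9900034, minus strand) was the least methylated of the 6 in B cells, at 30.74% to 34.44% (median 32.47%), and was at 19.86% to 27.79% in T cells (median 23.49%). The *Tox* locus (chr4:6686353-7001557, minus strand) was the most methylated, at 87.14% to 89.75% in B cells (median 88.43%) and 71.61% to 82.37% in T cells (median 78.26%). They ranked 470 and 273 by difference. In each of the 6 loci the lowest B cell library lay above the highest T cell library, as in 5.36% of all loci tested. The difference was nearly the same in each sex, for example 36.44 points (male) and 37.63 points (female) at *Lef1*, and 11.02 and 10.8 points at *Tox*. With male libraries alone (4 against 4), *Lef1*, *Satb1* and *Tox* missed the threshold, at adjusted p of 0.0514, 0.0544 and 0.0637, with differences of 36.44, 38.04 and 11.02 points.

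The SD in T cells exceeded that in B cells at each locus, and the T cell libraries fell into their 2 assays. At *Lef1*, the 4 BS libraries of T cells lay between 44.59% and 47.97% and the 4 oxBS libraries between 27.44% and 29.62%, whereas B cells were at 73.97% ± 1.59 by BS and 74.78% ± 1.08 by oxBS (SD, n = 4 each). The difference between B and T cells was therefore 27.62 points by BS and 46.46 points by oxBS. It was 33.54 and 45.69 points at *Tcf7*, 25.96 and 43.33 at *Bcl11b*, 28.31 and 47.61 at *Satb1*, 6.683 and 10.41 at *Gata3*, and 6.838 and 14.99 at *Tox*, by BS and oxBS respectively. The assays are compared in full further on.

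**Figure D1:**
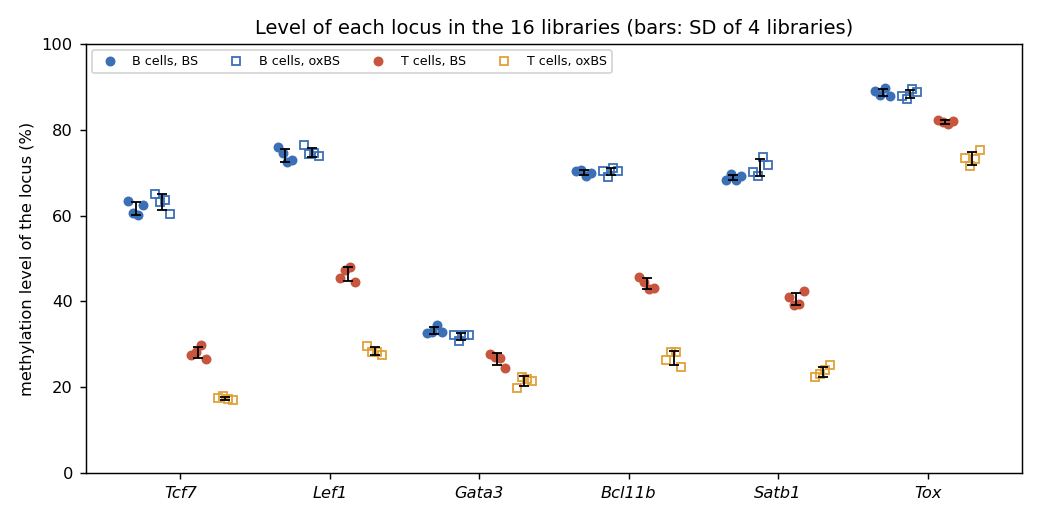
Methylation level (%, y axis) of each of the 6 loci in the 16 libraries, with BS libraries as filled circles and oxBS libraries as open squares, B cells in blue and T cells in red (BS) and yellow (oxBS), and bars for the mean ± SD of 4 libraries. The T cell libraries lie below the B cell libraries at each locus, and in T cells the oxBS libraries lie below the BS libraries, for example at 27.44% to 29.62% against 44.59% to 47.97% at *Lef1*.

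To find where along each gene the difference lay, the calls were pooled over 500 bp tiles. A tile was tested if it held 3 or more CpGs and had 10 or more calls in each of the 16 libraries, and called with an adjusted p below 0.05 over 2426385 tiles and a difference of at least 20 points. Of 1027 tested tiles of the 6 genes, among 1432 that hold a CpG, 507 (49.4%) were called lower and 8 (0.779%) higher in T cells. Of all tested tiles, 1.97% were called lower and 1.1% higher. The called share was 73% at *Satb1* (103 of 141 tiles), 70.5% at *Lef1* (155 of 220), 68.8% at *Tcf7* (53 of 77) and 68.8% at *Bcl11b* (137 of 199), against 17.6% at *Gata3* (13 of 74) and 14.6% at *Tox* (46 of 316). These counts moved with the settings by more than 1.5 times, to between 10 and 75 in 9 alternatives at *Tox* and 6 and 8 in 5 at *Gata3*, to between 40 and 52, 81 and 91, and 70 and 75 in 4 each at *Satb1*, *Lef1* and *Bcl11b*, and to between 33 and 35 in 3 at *Tcf7*. The median difference over tested tiles was 42.77 points at *Tcf7*, 40.84 at *Lef1*, 37.1 at *Bcl11b* and 36.19 at *Satb1*, but 1.673 at *Gata3* and 3.842 at *Tox*, and 0.4002 over all tested tiles.

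Among 16857 protein-coding genes with at least 20 tested tiles, *Satb1*, *Lef1*, *Bcl11b* and *Tcf7* ranked 2, 3, 5 and 6 by the share of tiles lower in T cells, *Gata3* ranked 354 and *Tox* 507. No tile was called lower in 50.5% of these genes, the 99th percentile was 24.1%, and 24 genes had at least 50%. With the BS or oxBS libraries alone, 250 and 433 tiles of the 6 genes were called lower, or 23.3% and 40.3% of those tested, against 0.399% and 0.831% of all tiles. Each of these fits has 4 libraries against 4. Without any limit from a test, the T cell libraries lay below each B cell library in 538 of 1027 tiles by BS (52.4%, all tiles 4.24%) and in 723 by oxBS (70.4%, all tiles 7.51%). At *Tox* these shares were 16.8% by BS and 44% by oxBS, and at *Gata3* 23% and 35.1%.

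**Figure D2:**
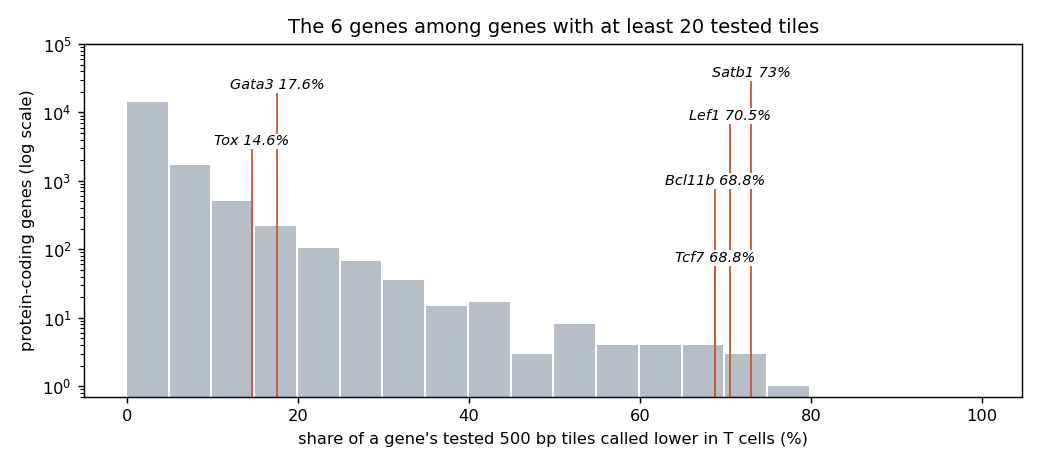
Number of protein-coding genes (y axis, log scale) by the share of their tested 500 bp tiles called lower in T cells (x axis, %), for genes with at least 20 tested tiles, with the 6 genes marked by red lines. *Satb1* (73%), *Lef1* (70.5%), *Bcl11b* (68.8%) and *Tcf7* (68.8%) stand in the far right of the distribution, and *Gata3* (17.6%) and *Tox* (14.6%) in its flank.

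The called tiles lay in different places in each gene. A run below is a series of tested tiles with the same call, or with a mean of 20% or less over 8 libraries. Tiles too thin to be tested do not end it. Levels of a run over 8 libraries pool its called tiles, and levels by assay pool all CpGs between its ends. At *Tcf7*, the tiles at 20% or less around the promoter spanned 2000 bp in B cells and 13500 bp in T cells, in which they reached from -1486 to 12013 bp relative to the TSS. Beyond this stretch, tiles 12264 and 13764 bp from the TSS were at 20.86% and 22.06% in T cells. Those at 14264 to 17764 bp were again at 0% to 12.2%. The longest run of called tiles, 514 to 9513 bp from the TSS, held 18 tiles and 143 CpGs, and was at 79.97% ± 2.12 in B cells against 0.3326% ± 0.316 in T cells (SD, n = 8 each). Its T cell libraries did not exceed 0.8754% by BS or 0.1627% by oxBS. Further into the gene, 17514 to 21513 bp from the TSS, B cells were at 84.94% ± 3.2 by BS and 83.84% ± 1.74 by oxBS, and T cells at 31.22% ± 3.16 by BS but 11.82% ± 2.7 by oxBS (SD, n = 4 each). In the introns 41 of 46 tiles were called lower, against 7 of 14 tiles that overlap an exon and 5 of 17 upstream. Many of these tiles also overlap another annotated gene. It is A630014C17Rik in tiles from -3236 to 6764 bp and Gm26551 in tiles from 13264 to 30764 bp.

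*Satb1* had the widest unmethylated stretch. Tiles at 20% or less spanned 3000 bp in B cells and 34500 bp in T cells, from -1210 to 33289 bp relative to the TSS. Within it, the 15500 bp run of 20 called tiles nearest the TSS was at 78.1% ± 2.35 by BS and 78.89% ± 2.18 by oxBS in B cells, and at 0.8604% ± 0.286 and 0.4581% ± 0.368 in T cells (SD, n = 4 each). A run of 25500 bp (29 tiles) further in, chr17:51785501-51811000, was at 92.73% by BS and 93.44% by oxBS in B cells and, in T cells, at 30.92% ± 2.16 by BS and 14.28% ± 1.5 by oxBS. In T cells its 14 tiles toward the promoter were at 0% to 11.51% and its other 15 tiles at 25.4% to 70.01%. The 2 tiles with the largest differences overlapped annotated exons 8040 and 26040 bp from the first TSS, at 97.33% and 96.51% in B cells and 0.6254% and 0.3621% in T cells.

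At *Lef1*, 1 run of 94 called tiles covered 54500 bp, from 3030 to 57529 bp downstream of the TSS. Its level over the called tiles in B cells was 87.93% to 90.64% with a median of 88.94%, and in T cells 14.3% to 34.69% with a median of 24.67%. The T cell value was 33.64% ± 0.891 by BS and 15.59% ± 1.34 by oxBS (SD, n = 4 each). The stretch at 20% or less was already 7500 bp wide in B cells and reached 15000 bp in T cells. Its 3 tiles with the largest differences lay 4779, 5279 and 6779 bp from the TSS, at 92.5% to 95.57% in B cells and 0% to 0.6687% in T cells. None of 19 tiles upstream of *Lef1* was called lower.

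At *Bcl11b*, the unmethylated stretch at the promoter was 5000 bp in B cells and 14000 bp in T cells. A pair of further runs of 19500 and 19000 bp lay deep in the gene. The first of them, 66102 to 85601 bp from the TSS, was at 88.55% by BS and 88.61% by oxBS in B cells and, in T cells, at 34.1% ± 1.85 by BS and 17.38% ± 2.35 by oxBS (SD, n = 4 each). The other, 27602 to 46601 bp from the TSS, was at 80.64% and 79.55% in B cells and at 40.8% and 20.5% in T cells by the same assays. All 3 tiles with the largest differences were intronic, 28852 to 81852 bp from the TSS, and fell from 89.42% to 94.49% in B cells to 0.7818% to 5.952% in T cells. No tile among 20 upstream was called lower.

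*Gata3* differed in fewer places. Its annotation in GENCODE vM21 starts 11434 bp upstream of the TSS of 1 further protein-coding transcript at position 9878600, and 30 of 74 tiles were at 20% or less already in B cells, as were 33 in T cells. The longest called run, 2500 bp and 73 CpGs at 13034 to 15533 bp from the first TSS, was at 73.86% ± 7.4 in B cells against 18.04% ± 10 in T cells (SD, n = 8 each). By BS and oxBS the T cells were at 26.47% and 9.605% there. The 3 tiles with the largest differences were intronic, at 84.28% to 94.72% in B cells and 0% to 6.992% in T cells. Of 16 upstream tiles none was called in either direction.

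In *Tox*, the longest of the 6 genes, the longest run of called tiles lay 2057 to 13056 bp from the TSS. This run, 11000 bp with 9 tested tiles at chr4:6978501-6989500, was at 88.55% by BS and 87.71% by oxBS in B cells, and at 41.87% ± 2.52 and 26.22% ± 2.92 in T cells (SD, n = 4 each). Tiles at 80% or more made up 94% of the tested tiles in B cells against 77.5% in T cells. Tiles 4307 and 20807 bp from the TSS were at 90.93% and 97.31% in B cells and at 1.792% and 8.343% in T cells. The longest stretch of tiles at 20% or less began 57 bp inside the gene, and reached to 2056 bp from the TSS in B cells and to 4556 bp in T cells. The tile over the first TSS, -443 to 56 bp, had a B cell level of 51.57% ± 6.76 against 29.35% ± 7.79 for T cells (SD, 8 libraries each) and was itself called lower, by 22.22 points (adjusted p of the model 0.00109). That TSS is annotated for a transcript with a retained intron, and the protein-coding TSS lies 758 bp further in.

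**Figure D3:**
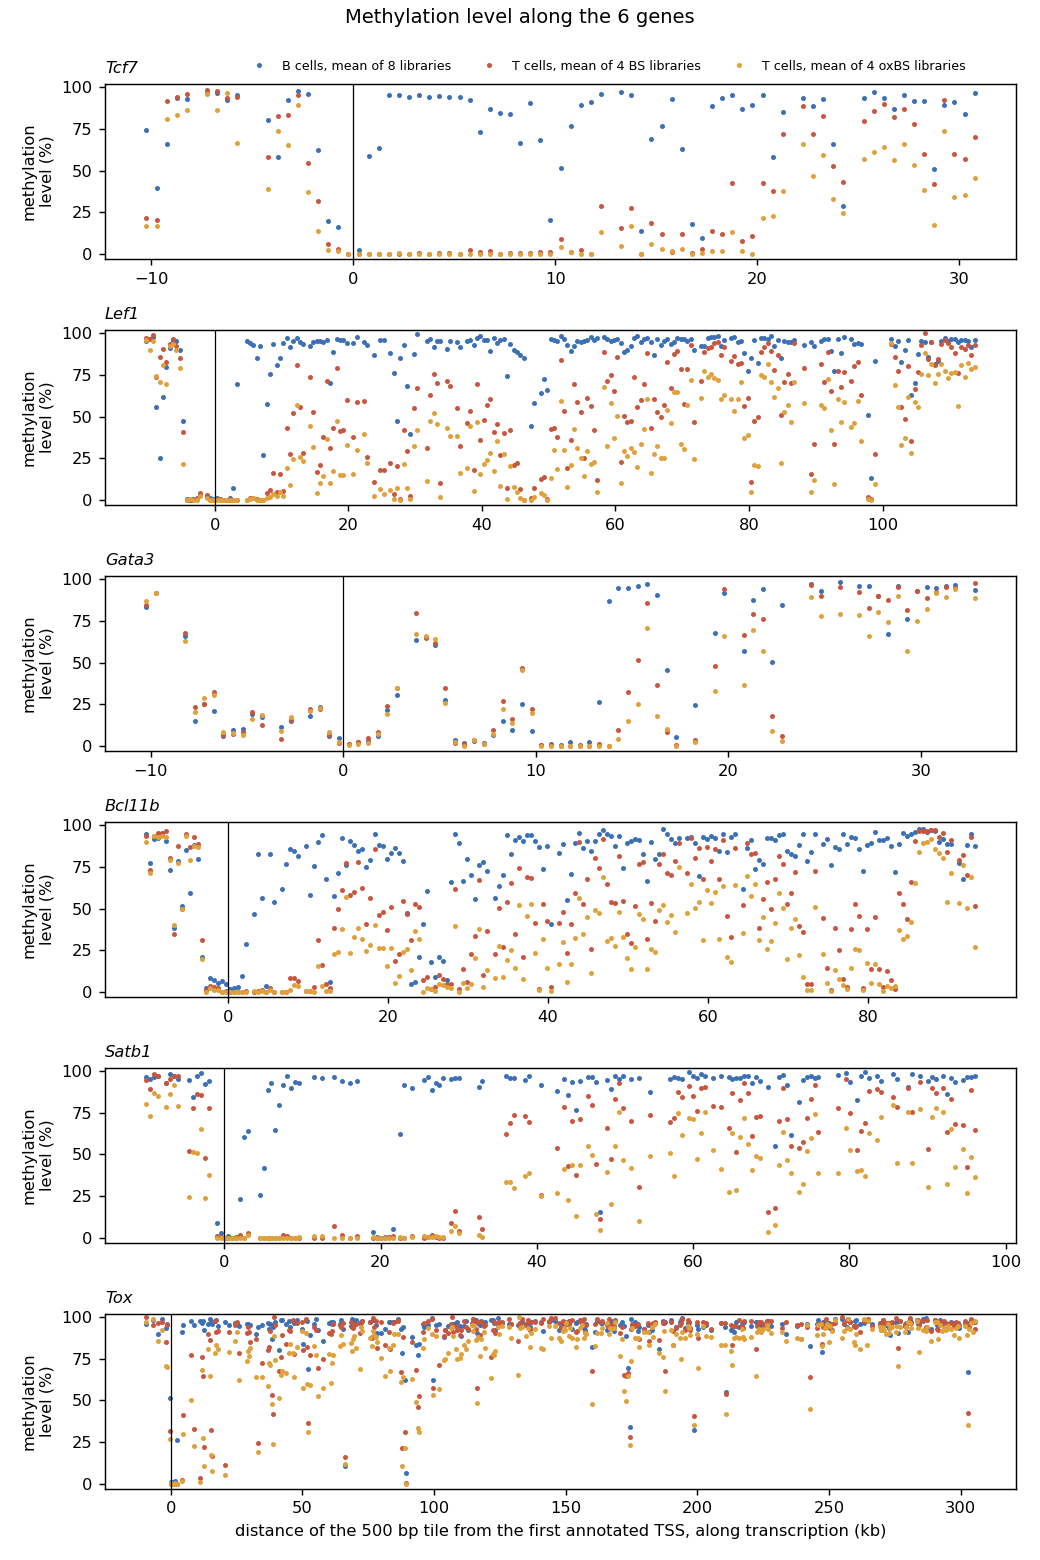
Methylation level (%, y axis) of each tested 500 bp tile by its distance from the first annotated TSS along transcription (kb, x axis, vertical line at 0), 1 panel per gene, for the mean of 8 B cell libraries (blue) and of the 4 BS (red) and 4 oxBS (yellow) libraries of T cells. The blue points lie mostly near the top of the *Tcf7*, *Lef1*, *Bcl11b* and *Satb1* panels outside the promoter. In these panels the longest stretches at 20% or less in T cells, by the mean of 8 libraries, span 13500 bp (*Tcf7*) to 34500 bp (*Satb1*). Beyond them the T cell levels vary, with red above yellow in many tiles.

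Over the 6 genes, 110 of the 507 tiles called lower went from at least 80% in B cells to at most 20% in T cells, while 409 of them were at 80% or more in B cells. Of all 47831 tiles called lower, 2622 went from at least 80% to at most 20%. The called tiles had a median of 92.47% in B cells against 35.4% in T cells. Of 512 tiles called in neither direction, 340 were at 80% or more in both cell types and 83 were at 20% or less in both. The latter were CpG-rich, with a median of 20 CpGs, against 7 in the tiles called lower.

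Tiles that were higher in T cells were few, 8 of 1027, a share below that of all tiles (0.779% against 1.1%). The largest lay upstream of *Lef1*, at -8221 bp (chr3:131102001-131102500, 12 CpGs), at 15.25% to 33.33% in B cells (median 26.13%) and 64.1% to 90.36% in T cells (median 78.8%), with groups that did not overlap (adjusted p of the model 1.07e-05). In intron sequence of *Bcl11b* (chr12:107980001-107980500), a CpG-dense tile of 35 CpGs was at 3.46% to 10.61% in B cells (median 5.249%) and 15.85% to 57.46% in T cells (median 50.22%). The 1 lowest T cell library there was an oxBS library, and the dispersion was 5.73 times the binomial variance. *Gata3* had 1 such tile, 9284 bp from the first TSS, at 25.4% ± 4.85 in B cells and 46.1% ± 6.53 in T cells, and *Tcf7* had its largest upstream at -3736 bp, with 58.15% ± 7.12 and 78.43% ± 8.49 (SD, n = 8 in each group), where the libraries overlapped. This count was not stable to the libraries used. It was 5 without the 2 male BS libraries of B cells, 5 without the T cell library of replicate 5, 7 or 15, each a BS library, 3 with BS and 1 with oxBS libraries alone.

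Whether the promoters themselves differed was asked with windows of 1 kb on either side of each annotated TSS. Of the 31 windows of the 6 genes, 11 were called lower in T cells and none higher, against 1.36% and 0.631% of 127854 windows tested over all genes. Windows overlap where TSSs lie close, so they are not independent. At the first TSS, levels in T cells were 0.1293% to 1.938% at *Lef1*, *Gata3*, *Bcl11b*, *Satb1* and *Tcf7* and 7.212% at *Tox*, while B cells were at 0.6379% at *Lef1*, 1.348% at *Satb1*, 2.846% at *Gata3*, 3.931% at *Bcl11b*, 10.58% at *Tcf7* and 15.66% at *Tox*. None of these 6 windows reached the limit of 20 points, and none could be called lower, since all were below 20% in B cells. The adjusted p of the model was 1.55e-07 at *Bcl11b*, 7.59e-07 at *Tcf7* and 0.000324 at *Tox*. It was 0.0158 at *Satb1*, 0.0424 at *Lef1* and 0.308 at *Gata3*, where the libraries of B and T cells overlapped. At *Satb1* B cell libraries were at 0.4338% to 3.84% and T cell libraries at 0% to 0.4866%. At *Lef1* they were at 0% to 1.549% and 0% to 0.3382%. The part of conversion in differences this small was not tested.

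At *Tcf7* the first window was at 6.549% to 15.41% in B cells (median 10.66%) and at 0% to 0.492% in T cells (median 0.3924%), without overlap, and at *Bcl11b* it was at 3.011% to 4.918% and 0% to 0.4162% (medians 3.96% and 0.0873%). The windows that were called belonged to TSSs within the gene. Those of *Lef1* and *Gata3* were TSSs of transcripts annotated as retained intron or processed transcript alone. So were those of *Satb1* 3793, 24158 and 91024 bp from the first TSS, while its other called windows held a protein-coding transcript. Of 12 windows of *Satb1*, 7 were called, 3793 to 91024 bp from the first TSS. The window 12199 bp downstream was at 96.63% ± 3.09 in B cells and 1.067% ± 1.65 in T cells, and that of 2 protein-coding transcripts at 6702 bp was at 81.9% ± 4.78 and 0.133% ± 0.376 (SD, n = 8 each). Further in, the CpG-rich window at 20610 bp (171 CpGs) was unmethylated in both cell types, at 0.4098% and 0.126%.

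For *Lef1*, the windows 3343 and 3385 bp from the first TSS were called, at 29.9% ± 5.89 and 30.75% ± 6.1 in B cells and 0.4245% ± 0.614 and 0.4409% ± 0.644 in T cells (SD, n = 8 each). For *Gata3* the called windows lay 14635 and 16362 bp from the first TSS, at 94.98% ± 1.09 and 63.67% ± 6.35 in B cells and 31.8% ± 11.7 and 32.43% ± 8.17 in T cells. The window of the protein-coding *Gata3* TSS at 9878600 was at 1.241% and 0.1062%. The first *Tox* TSS belongs to a transcript with a retained intron. The window of the protein-coding *Tox* TSS, 758 bp from the first, was at 3.641% in B cells and 0.4692% in T cells. No window of *Tcf7*, *Bcl11b* or *Tox* was called.

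**Figure D4:**
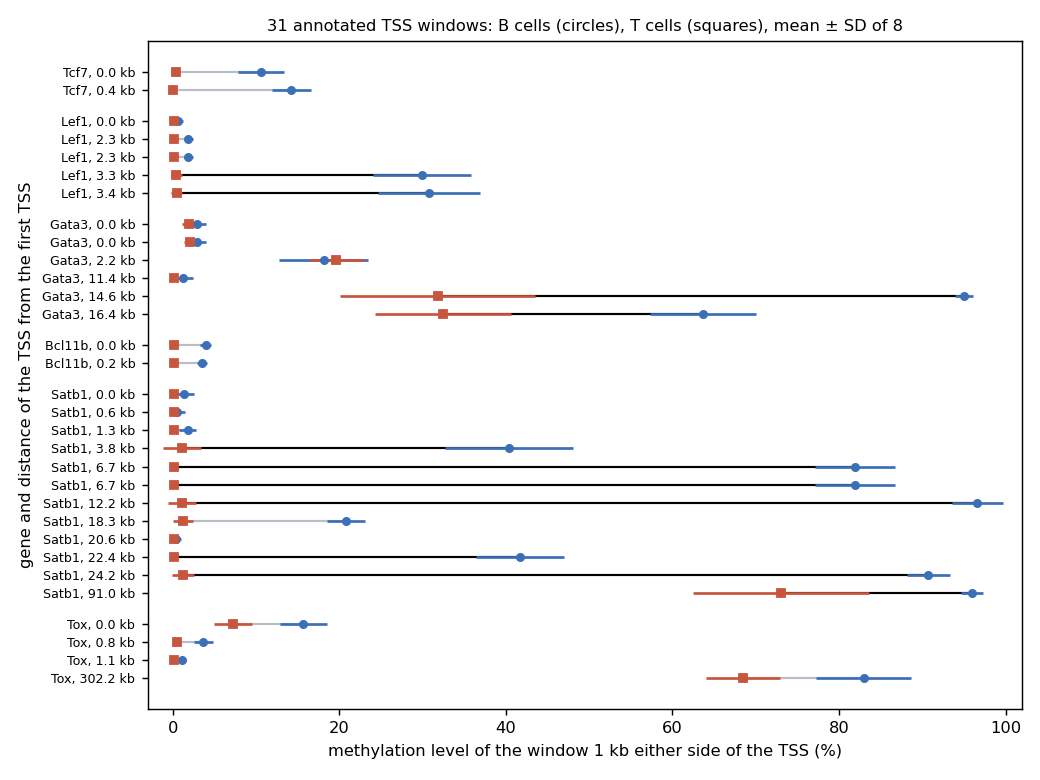
Methylation level (%, x axis) of the 31 windows of 1 kb either side of an annotated TSS, named by gene and distance from the first TSS (y axis), as the mean ± SD of 8 B cell libraries (blue circles) and 8 T cell libraries (red squares). Black lines join the 11 windows called lower in T cells, which include 7 of 12 at *Satb1*, and grey lines the others.

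The assays were compared within each cell type over the gene bodies, from TSS to gene end. In T cells BS read more methylation than oxBS at each of the 6 genes, by 6.16 to 20 points, while in B cells the differences were between -2.99 and 1.47 points. Calls read as methylated by BS alone are attributed by the method to 5-hydroxymethylcytosine. The spiked control fragments that measure oxidation and conversion were not analysed here, and the part of conversion in these differences was not tested.

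*Lef1* was at 48.24%, 49.92%, 50.47% and 47% in the 4 BS libraries of T cells and at 30.11%, 28.8%, 29% and 27.71% in the 4 oxBS libraries. At *Bcl11b* the BS libraries were at 46.17%, 45.95%, 44.06% and 43.92% and the oxBS libraries at 25.27%, 27.45%, 26.49% and 23.75%. The gap between the assays exceeded the range within either at both genes, 20 and 19.3 points between the means. *Satb1* was at 38.63% ± 1.39 by BS and 21.47% ± 1.15 by oxBS, a difference of 17.2 points, *Tcf7* at 23.59% ± 1.22 and 11.88% ± 0.506, a difference of 11.7 points, and *Tox* at 81.84% ± 0.494 and 73.26% ± 1.58, a difference of 8.57 points (SD, n = 4 in each group).

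These 5 genes were called in T cells with BS above oxBS (adjusted p of 0.00192 to 0.00862 in the model with sex as covariate), as were 5.85% of 21248 gene bodies, and 0.0188% were called the other way. *Gata3* missed the threshold, with 27.39% ± 1.69 by BS and 21.23% ± 1.42 by oxBS. Its adjusted p was 0.0548, and it was called in 3 alternatives, at 10.39 points (adjusted p 0.00613) when tiles at 20% or less in both cell types were left out, at 5.116 points (0.0487) with 10 kb upstream included and at 6.16 points (0.0273) without sex in the model. These alternatives called 6132 of 21015, 1313 of 21567 and 1551 of 21248 gene bodies in T cells, against 1247 of 21248 in the fit reported. For each of the 6 genes the 4 BS libraries of T cells lay above the 4 oxBS libraries, as for 15.9% of gene bodies (0.475% had the reverse), with an exact two-sided permutation p of 0.0286, the smallest that 4 against 4 allow and too large to pass an adjustment over genes. In B cells the assays also did not overlap at *Gata3*, with BS above oxBS by 1.47 points, and at *Satb1*, with BS minus oxBS at -2.99 points, each with the same exact permutation p of 0.0286. Of all gene bodies in B cells, 0.546% had the 4 BS libraries above the 4 oxBS libraries and 2.19% the reverse. With male or female libraries alone the differences were 16.71 to 20.38 points at *Lef1*, *Bcl11b* and *Satb1*, and no gene body of the genome was called with 2 libraries against 2.

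Among 14749 gene bodies with a median of at least 1000 calls per library, *Lef1*, *Bcl11b* and *Satb1* ranked 1, 2 and 5 by BS minus oxBS in T cells, *Tcf7* ranked 79, *Tox* 275 and *Gata3* 812. The median over these 14749 gene bodies was 1.1 points and the 99th percentile 10.2 points. Among all 21248 gene bodies tested, thinly covered ones included, the ranks were 10, 13, 20, 137, 421 and 1162 in the same order. In B cells no gene body of the 21248 was called in either direction (0%), with 763 at an unadjusted p below 0.05. The *Lef1* gene body was at 80.45% ± 1.42 by BS and 81.53% ± 0.959 by oxBS in B cells, that of *Bcl11b* at 74.89% ± 0.618 and 74.51% ± 0.721, and that of *Satb1* at 68.23% ± 0.594 and 71.22% ± 2.13 (SD, n = 4 each). The difference between assays was itself tested against cell type, and it differed between B and T cells at each of the 6 genes (adjusted p of the interaction 4.26e-05 to 0.0459), as at 4.28% of gene bodies. *Gata3* did not keep its call in 14 of the 16 fits that left out 1 library (adjusted p of the model 0.0506 to 0.104), that is, in all but those without replicate 11 of B cells or replicate 7 of T cells, nor with 10 kb upstream (0.0615). The other 5 genes kept theirs in each of these fits, and with male or with female libraries alone none of the 6 was called (0.227 to 0.724).

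The same comparison was made over the tiles after the gene body values had been seen. No tile passed the adjustment over 2426385 tiles in either cell type or direction (0% of tiles), although 531 of the 1027 tiles of the 6 genes had an unadjusted p below 0.05 in T cells and 12 in B cells, against 109049 and 28354 of all tiles. In T cells the 4 BS libraries lay above the 4 oxBS libraries in 507 of the 1027 tiles (49.4%), against 4.99% of all tested tiles, and in none of the 1027 did the 4 oxBS libraries lie above, as they did in 20568 of all 2426385 tiles. In B cells the BS libraries lay above in 13 tiles and below in 13, or 1.27% each, against 1.25% above and 31518 tiles below among all tiles. The T cell share was 64.8% at *Bcl11b*, 62.3% at *Lef1*, 58.9% at *Satb1*, 50.6% at *Tcf7*, 33.5% at *Tox* and 17.6% at *Gata3*.

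The gap differed with the level in T cells, taken as the mean of the same BS and oxBS libraries. Levels near either end of the scale leave less room for a gap, so part of this difference is set in advance. Tiles between 20% and 80% in T cells had a median BS minus oxBS of 22.3 points over the 6 genes (419 tiles), against 2.42 points in all tested tiles of that class. Tiles at 20% or less had a median of 1.08 points (261 tiles) and tiles at 80% or more 7.19 points (347 tiles), against 0.392 and 0.788 points in all tested tiles of these classes. *Gata3* had a different order, with a median of 5.03 points in its 25 tiles between 20% and 80% and 8.14 points in its 16 tiles at 80% or more. The 507 tiles in which BS lay above oxBS and the 507 called lower in T cells than in B cells are different sets of equal size, which share 322 tiles or 63.5% of each. Of all 47831 tiles lower in T cells, 26.2% had the 4 BS libraries above the 4 oxBS libraries. The bases of these shares are unlike, since BS lay above oxBS in 49.4% of the tested tiles of the 6 genes and in 4.99% of all tested tiles. Both sets also use the same T cell libraries, so they are not independent.

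The tile with the largest gap in each gene shows how far the assays parted. These tiles were picked for that gap, so their values are a description, and none passed the adjustment over tiles (adjusted p of the model 0.98 each). In *Bcl11b*, 18352 bp from the TSS, the BS libraries of T cells were at 81.08%, 85.45%, 87.1% and 89.36% and the oxBS libraries at 33.33%, 38.1%, 43.75% and 45.16%, while B cells averaged 93.47% by BS and 96.01% by oxBS. In *Lef1*, 62779 bp from the TSS, the means in T cells were 73.82% ± 8.24 and 28.85% ± 11.3, and in *Satb1*, at 37040 bp, 73.88% ± 6.02 and 29.67% ± 5.65 (SD, n = 4 each). In *Gata3*, 20784 bp from the first TSS, T cells were at 66.61% ± 1.21 by BS, above the B cell means of 54.38% and 59.73%, and at 36.4% ± 8.55 by oxBS, below them.

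**Figure D5:**
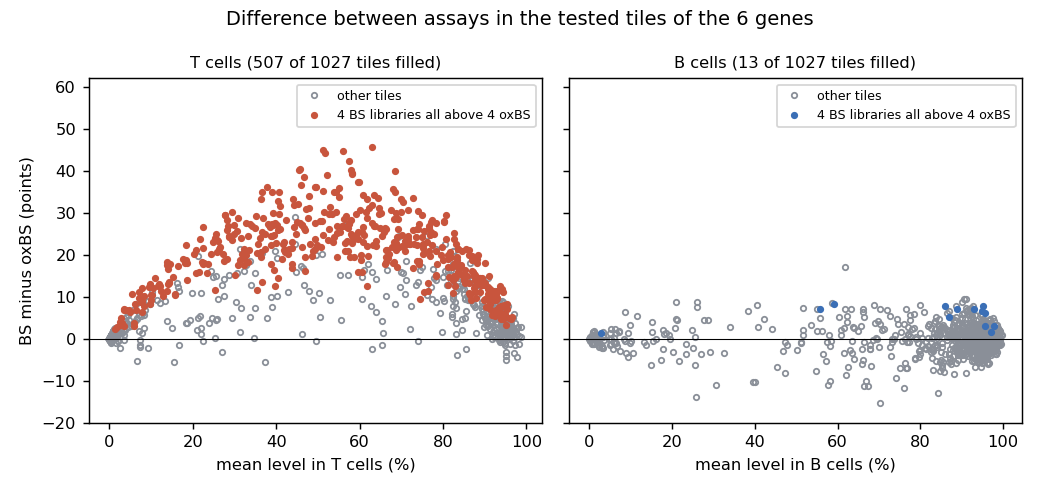
BS minus oxBS (percentage points, y axis) against the mean level (%, x axis) of the 1027 tested tiles of the 6 genes, in T cells (left) and B cells (right), with tiles filled where the 4 BS libraries all lie above the 4 oxBS libraries. In T cells 507 tiles are filled, and the widest gaps lie at intermediate levels, which leave the most room for a gap. In B cells 13 are filled and the points scatter about 0.

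The genes closest to each of the 6, by the shares of tiles called lower and higher in T cells over 8 against 8 libraries, were sought among 16857 genes, and the nearest to *Tcf7*, *Lef1*, *Bcl11b* and *Satb1* were one another or *Gimap4*. *Tcf7* was nearest to *Bcl11b* and then *Lef1*, *Bcl11b* to *Tcf7* and then *Lef1*, and *Lef1* to *Gimap4* (70% of 20 tiles lower) and then *Bcl11b*. *Satb1* was nearest to *Lef1* and *Gimap4*, *Gata3* to *Akna* (17.4%) and *Lrig1* (17.3%), and *Tox* to *Wdr31* and *Ppp1cb* (14.5% each). The distance was 0.0115 to 3.05 points over 2 shares per gene, and it says nothing of where in the gene the tiles lie.

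Other regulators of T cell development, 26 genes, had 633 of 5045 tiles called lower in T cells (12.5%) and 144 higher (2.85%), against 1.97% and 1.1% of all tiles. Of their loci 18 were called lower, 2 higher and 6 in neither direction, against 21.2% lower and 3.58% higher over all loci. Their median locus difference was 4.629 points, against 35.84 points for the 6 genes and 1.112 over all genes. The highest shares of tiles lower were at *Ikzf1*, which encodes Ikaros (52.6% of 116 tiles, locus 59.74% in B cells and 35.39% in T cells), and *Ets1*, an ETS family factor (47.8% of 184 tiles, locus 68.18% and 41.75%). The highest shares of tiles higher in T cells were at *Klf2*, a regulator of lymphocyte migration (17.6% of 17 tiles, the same share as lower), and *Tcf3*, which encodes the E2A proteins (14.5% of 62 tiles). In this list 14 gene bodies had BS called above oxBS in T cells (5.85% over all genes), the median gap being 4.84 points and that of *Ikzf1* 14.4 points.

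The 12 paralogs of the 6 genes, such as *Tcf7l2* and *Gata2*, had 23 of 1810 tiles lower (1.27%) and 39 higher (2.15%) in T cells, against 1.97% and 1.1% of all tiles, and 2 loci were called lower, 1 higher and 9 in neither direction (21.2% lower and 3.58% higher over all loci). None of their 12 gene bodies was called between assays in T cells, and the median gap was 0.283 points. *Gata2* had the highest share lower, at 2.27% of 44 tiles, followed by *Tox3* with 1.89% of 159. *Bcl11a*, the paralog of *Bcl11b* that is needed for B cell development, went the other way, with 12.6% of 167 tiles higher in T cells and a locus at 60.26% in B cells against 66.09% in T cells (adjusted p of the model 0.00324).

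Transcription factors of the B lineage, 11 genes of which *Foxo1*, *Tcf3* and *Bach2* are also among the other regulators, had 214 of 2142 tiles lower (9.99%) and 157 higher in T cells (7.33%), against 1.97% and 1.1% of all tiles. *Bach2* alone held 138 of the tiles lower. The median share per gene had the opposite order, 3.67% lower and 8.62% higher, and the median locus difference was -2.611 points. Here 5 loci were called higher, 3 lower and 3 in neither direction, beside 3.58% higher and 21.2% lower over all loci. *Spib*, an ETS family factor of B cells, had 46.9% of 32 tiles higher in T cells, with a locus at 55.61% in B cells against 79.65% in T cells, and *Irf8* 36.1% of 61 tiles. *Irf4* and *Bach2* had the highest shares lower, at 25.6% of 43 and 25.5% of 541 tiles. In T cells 4 of these gene bodies had BS called above oxBS, against 5.85% over all genes, with a median gap of 1.86 points.

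Motif letters bound by T lineage factor families were counted in the tiles on both strands. For zinc finger factors of the GATA-3 family, the letters searched (AGATAA) were in 25.2% of the tiles of the 6 genes lower in T cells and in 25.6% of all tested tiles. For the TCF-1 and LEF-1 family (CTTTGA) the shares were 32% and 32%. For RUNX factors (TGTGGT) they were 33.5% and 32.6%, and for ETS factors (GGAAGT) 26% and 27%. Over all tiles lower in T cells in the genome the shares were 28.8%, 41%, 45.9% and 31.8%, in the same order.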

How the data were processed

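The 16 deposited files hold, per the labels and the authors' methods, counts of unmethylated and methylated calls per CpG with strands combined. The authors trimmed reads (Trim Galore 0.6.0), aligned them to mm10 (Bismark 0.20.0, default options) and kept confident alignments (SAMtools 1.3.1 is also named). The study pooled the assays because it held 5-hydroxymethylcytosine to be very low in these cells. Here the main fits of B against T cells also used both assays together, with assay as a covariate. The assays were in addition compared within each cell type. CpGs without a call are not listed, and 2 male BS files of B cells list no contigs. The reference was mm10 with GENCODE vM21.

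Calls were pooled over 500 bp genome tiles, windows of 1 kb either side of each TSS, loci (10 kb upstream to gene end) and gene bodies of chromosomes 1 to 19 and X, with at least 3 CpGs and 10 calls in each library. A quasi-binomial logistic model (F test, dispersion not below 1, covariates sex and assay) was fitted to every feature in Python 3.11.15 (NumPy 2.4.6, SciPy 1.17.1, numba 0.67.0), with Benjamini-Hochberg adjustment over all features, and was tested on simulated data. Single values had exact permutation tests. Tiles and windows also needed 20 points of difference. Pairs of libraries held equal counts at 5.42% to 7.09% of chromosome 19 CpGs, so each was counted once. Shallow tiles rest on few calls, so single tiles are less certain than loci.

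Named in the text are the 6 genes, for each the 3 tiles with the largest difference lower and the 1 higher in T cells, the 2 nearest genes by called shares, and per list the 2 genes with the highest called shares. Some items that these rules name are not reported here. The tile in each gene with the largest gap between assays was added after values were seen, as was the test of assays by tile. The members and lists were chosen with earlier results of these data known. Alternatives covered the test, covariates, assay, sex, libraries, call and CpG minimums, limit, tile and window size.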

Additional observations from a re-analysis of the deposited data

Results flagged for a closer look

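A library stood apart from the others of its group, by Dixon's criterion, in 7 of 80 groups of 4 or 8 libraries, where chance flags about 5%. In B cells, 1 library was at 86.08% in the *Tcf7* tile at chr11:52281001-52281500, below the next at 94.32%. In the *Bcl11b* tile that was higher in T cells, 1 B cell library was at 10.61%, above the next at 6.335%. In T cells, 1 library was above 0% where each of the others was at 0%, at 2.041% in the *Tcf7* tile at chr11:52280501-52281000, 0.885% in the *Lef1* tile at chr3:131117001-131117500 and 3.333% in the *Satb1* tile at chr17:51821501-51822000. With the others at 0%, any methylated call is flagged, so the criterion cannot judge these libraries and the chance share does not hold for them. In the *Tox* tile at chr4:6970501-6971000, 1 T cell library was at 20.45%, above the next at 10.71%. Over the *Gata3* gene body, 1 BS library of T cells was at 24.88%, below the next at 27.89%.

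The difference between BS and oxBS over the gene body differed between T and B cells, by a test of the interaction adjusted over all gene bodies. T cells exceeded B cells by 21.1 points at *Lef1* (adjusted p of the quasi-binomial model 5.02e-05), 20.2 points at *Satb1* (4.46e-05), 18.9 points at *Bcl11b* (4.26e-05), 12.4 points at *Tcf7* (0.000176), 8.24 points at *Tox* (0.00704) and 4.69 points at *Gata3* (0.0459). The *Gata3* call was lost in 14 of the 16 fits that left out 1 library (adjusted p of the model 0.0506 to 0.104), and no gene was called with male or with female libraries alone.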

How the results depend on the processing

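No paired analysis of B against T cells was possible because their libraries share no replicate numbers. The assays were compared unpaired, because the labels do not say which BS and oxBS libraries share DNA. No result changed direction under any alternative run. The count of tiles lower in T cells, 507, was 250 with BS libraries alone, 259 with male and 265 with female libraries alone, fits with fewer libraries, and 324 with 1000 bp tiles, of which fewer were tested. Leaving out 1 library gave 493 to 525. The count of tiles higher in T cells, 8, was 2 with a limit of 30 points, 3 with BS, 1 with oxBS, 0 with male and 1 with female libraries alone, 5 without the 2 male BS libraries of B cells, 2 with 1000 bp tiles and 5 with the grid shifted, and 5 to 8 with 1 library left out. TSS windows lower in T cells, 11, stayed between 9 and 15. The count of loci lower in T cells, 6, was 3 with male libraries alone. Gene bodies with BS above oxBS in T cells, 5, were 0 by the exact permutation test, whose smallest p of 0.0286 cannot pass the adjustment, and 0 with male or female libraries alone. The count of gene bodies whose gap differed between cell types, 6, was 0 with male and 0 with female libraries alone, and 5 or 6 with 1 library left out. The 10 calls per library asked of a tile leave the level of a thin tile uncertain.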
